A study of Nothobranchius furzeri with 20 samples.

Results

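A group of 58 liver genes was low in 5 libraries of one age group and higher in every other library of the series. The 20 libraries were made from livers of the turquoise killifish Nothobranchius furzeri, all males of the strain MZM-04/10p. At 9 weeks there were 5 libraries of unexercised fish and 5 of fish given swim-tunnel exercise, and at 27 weeks there were 10, all with swim-tunnel exercise. By sample title the 27-week libraries form 2 runs, JM132 to JM136 and JM140 to JM144, with the same age and exercise labels. The labels do not say what separates the runs. They also do not state that libraries come from different fish, and p-values then refer to the spread between libraries. No unexercised livers at 27 weeks were analysed here.

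The members were chosen by their measured values. Levels are in CPM, the counts of a gene divided by the counts of its library in mega units (M) after TMM scaling, which corrects the totals for a shift of the bulk of genes. Of 26739 gene identifiers, 14161 had a mean CPM of at least 1 and under 1000 over the 20 libraries. Of these, 10539 had means in exercised and unexercised 9-week livers within 1.3-fold of each other, with 0.5 CPM added to both. A gene was then kept where its highest CPM in JM132 to JM136 was under 0.5 of its lowest CPM in the other 15 libraries, with 0.5 CPM added to both. This left 58 genes, 0.55% of the 10539, and the limit of 150 genes was not reached. The contrast of JM132 to JM136 with the other libraries is therefore the selection itself, and it is described here without a test.

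The liver makes most plasma proteins, stores and releases sugar and fat, forms bile and clears foreign compounds, and in egg-laying fish it also makes yolk precursors in females. Hepatocytes carry out most of these tasks, and the organ also holds bile duct cells, endothelium, stellate cells and blood cells. The turquoise killifish is an annual species with a very short life, and it is used to study ageing. The deposited files do not pair identifiers with gene names, and 0 identifiers matched the RefSeq table (assembly NfurGRZ-RIMD1). The members are given by identifier, no role could be attached to them, and the tissue label could not be checked against liver markers.

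The members were reduced in JM132 to JM136 but not absent. Each had at least 10 counts in every one of these 5 libraries, and 0 members were at 0 in any of them. The summed count of a member over these 5 libraries ran from 103 to 33550, with a median of 1506. The mean CPM of the other 15 libraries was divided by that of JM132 to JM136, with 0.5 CPM added to both. This ratio ran from 2.67-fold to 53.2-fold, with a median of 5.49-fold and quartiles of 4.20-fold and 7.29-fold. The added value lowers the ratio of a member, most of all at low CPM. So taken, the ratio was at least 4-fold in 47 members, at least 8-fold in 11 and at least 10-fold in 3. Without the added 0.5 CPM more members reach 10-fold. An example is Nfu_g_1_008080, with means of 21.2 CPM in the other 15 libraries and 1.67 CPM in JM132 to JM136. Over all 10539 genes the median of the same ratio was 0.98-fold, with quartiles of 0.70-fold and 1.37-fold.

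**Figure D1:**
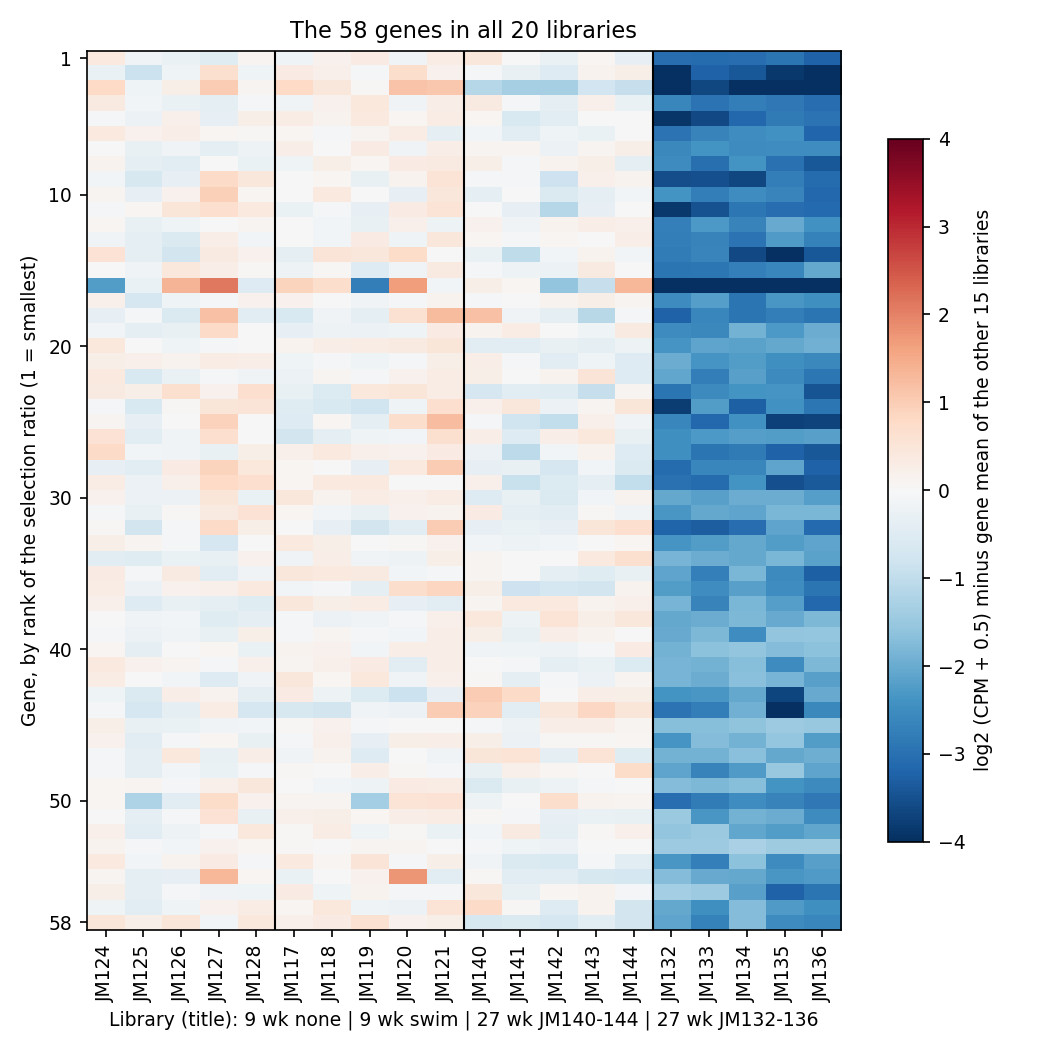
Log2 (CPM + 0.5) of each of the 58 genes (rows, by rank of the selection ratio) in the 20 libraries (columns, by title), relative to the gene's mean over the 15 libraries outside JM132 to JM136. Red is higher and blue lower; all rows are blue in JM132 to JM136 by selection, and JM124 and JM119 are also low in row 16, the gene with the widest spread.

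By selection every member was low in all 5 libraries, so the similar depth of the reduction across them is a description. The median level of the members, relative to each gene's mean in the other 15 libraries, was 19.05% in JM132, 17.0% in JM133, 21.6% in JM134, 18.6% in JM135 and 16.8% in JM136. The other 15 libraries lay between 81.5% and 120.7%. The summed level of the members was 962 ± 146 CPM (SD, n = 5) in JM132 to JM136 and 5946 ± 764 CPM (SD, n = 5) in JM140 to JM144. It was 7372 ± 1017 CPM (SD, n = 5) in exercised and 6776 ± 1254 CPM (SD, n = 5) in unexercised livers at 9 weeks. As a share of the raw counts, which uses no scaling, the members took 0.105% to 0.134% in JM132 to JM136 and 0.439% to 0.786% in the other libraries. In bulk RNA, fewer cells of a type and less RNA per cell cannot be told apart.

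**Figure D2:**
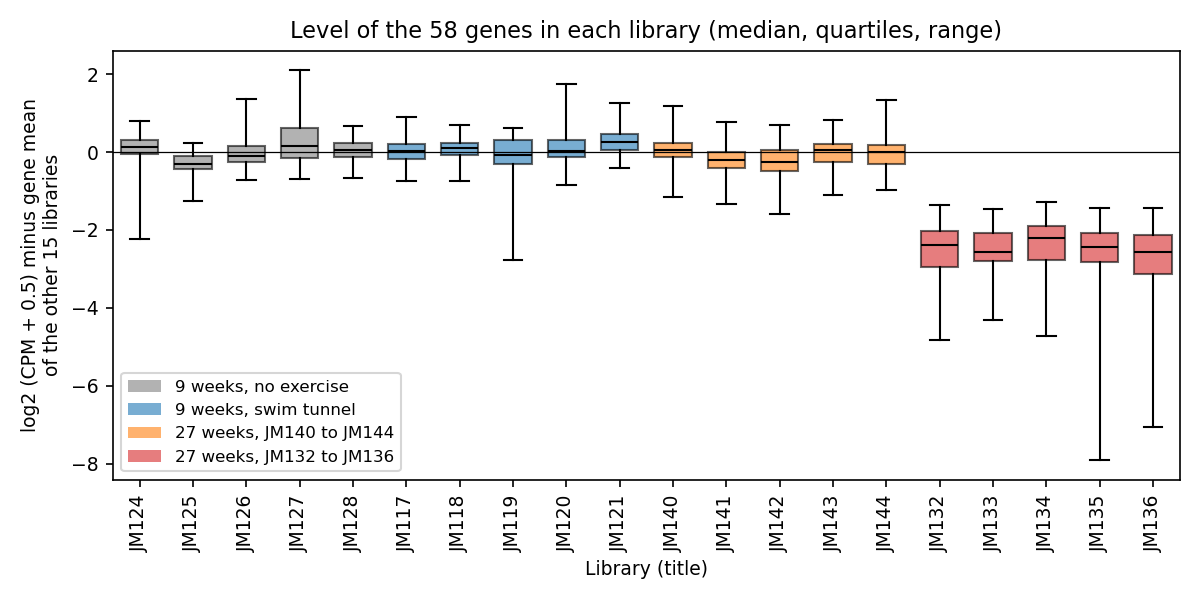
Distribution of the 58 genes in each library (x axis, title), as log2 (CPM + 0.5) minus the gene's mean over the other 15 libraries; boxes show median and quartiles, and whiskers the full range. Medians in JM132 to JM136 lie between -2.57 and -2.21, those of the other libraries between -0.30 and 0.27.

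In measures of the whole library, JM132 to JM134 lay within the range of the other 15 in TMM factor and in the share of the most abundant genes, and JM135 and JM136 lay outside it. Total counts of the 20 libraries ran from 22.4 to 44.6 M, and those of JM132 to JM136 from 28.2 to 44.6 M. The TMM factor was 1.24 ± 0.235 in JM132 to JM136 (SD, n = 5), against 0.867 ± 0.022 in JM140 to JM144, 0.894 ± 0.023 in exercised and 1.06 ± 0.120 in unexercised 9-week livers (SD, n = 5 each). The 100 most abundant genes of a library took 39.1% to 50.0% of the counts in JM132 to JM136 and 44.5% to 53.9% in the others. With unscaled library totals, 25 genes met the rule, 19 of them among the 58. Over the 10539 genes, the median log2 ratio of the other 15 libraries to JM132 to JM136 was then -0.41 in place of -0.03 (0.5 CPM added to both means). The part of these library measures in the low level of the members was not tested.

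Libraries JM135 and JM136 had the largest TMM factors, 1.52 and 1.47, and the smallest share in the 100 most abundant genes, 40.0% and 39.1%. In 10 members both of these libraries lay below JM132, JM133 and JM134, and in 8 members both lay above them, 17.2% and 13.8%. Among the 10539 genes the shares were 31.9% and 26.3%. JM134 held the highest value of the run in 22 members, 37.9%, against 26.5% of the 10539 genes, and so set their ratio. Since the rule uses that highest value, these shares are descriptions. Without JM135 and JM136 together, 93 genes met the rule, 54 of them among the 58. Without any 1 library of this run, 60 to 73 genes met it, since fewer values then have to be low. No other pair was left out.

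The same rule applied to JM140 to JM144 found 0 genes, and with the direction turned around it found 25 genes raised in JM132 to JM136 and 0 in JM140 to JM144. For a 9-week set the rule cannot find a gene, since its 1.3-fold window keeps the 9-week means together. Without that window it found 0 genes in either direction for exercised and for unexercised 9-week livers. For JM140 to JM144 it then found 0 lower and 1 higher, and for JM132 to JM136 102 lower and 74 higher. Libraries JM132 to JM136 lay below all other libraries, by any margin, in 1044 of the 10539 genes (9.91%) and above all others in 1275 (12.1%). By this ratio the members are the lowest 58 of the 1044. Of the 44 low genes that the window removed, 34 had a higher mean in exercised than in unexercised 9-week livers and 10 a lower one. The same split over all genes that the window removed was not computed, so these counts are a description. Of the 174 genes with a mean of 1000 CPM or more, which the rule leaves out, 4 met the ratio.

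**Figure D3:**
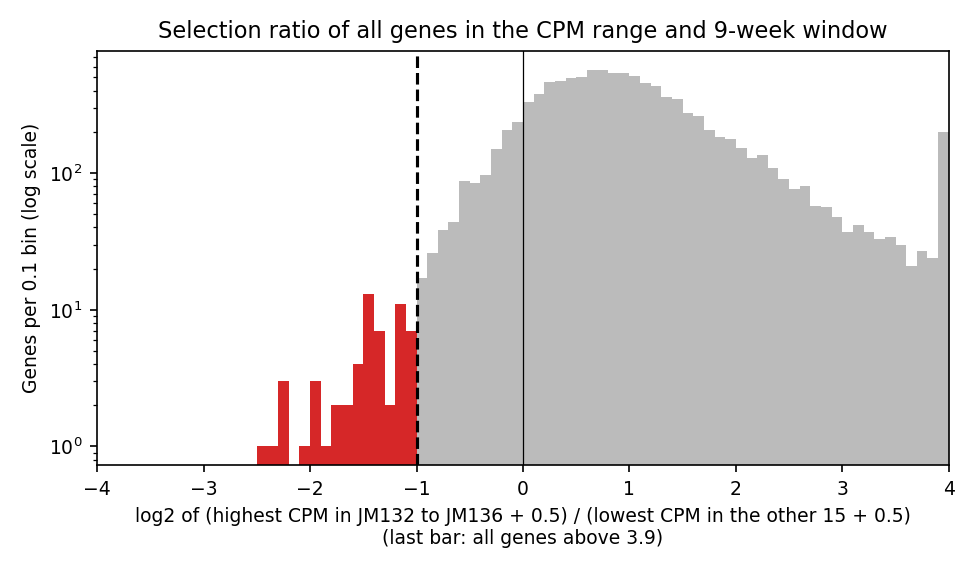
Number of genes (log axis) by log2 ratio of the highest CPM in JM132 to JM136 to the lowest CPM in the other 15 libraries, 0.5 CPM added to both, for the 10539 genes in the CPM range and 9-week window. The 58 members are the red bars left of the dashed line, and 1044 genes lie left of 0.

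The lower edge of the group is not a gap in the distribution. The last member had a ratio of 0.4993, with at most 235 CPM in JM132 to JM136 and at least 470.4 CPM elsewhere. The first gene left out had a ratio of 0.5003, with at most 31.2 CPM in JM132 to JM136 and at least 62.9 CPM elsewhere. There were 13 members with a ratio of 0.45 or more, and 28 genes lay between 0.5 and 0.55.

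The smallest ratio, 0.186, belonged to Nfu_g_1_014100, a gene with an implied length of 6816 bases. In JM132 to JM136 it had 10.4, 10.2, 10.4, 11.4 and 9.00 CPM. In JM140 to JM144 it had 121.7, 89.8, 74.9, 94.8 and 71.5 CPM. The 5 values of the low run were close to each other, while no other library fell under 63.6 CPM. The exercised 9-week livers had 78.6, 101, 111, 82.0 and 109.5 CPM, and the unexercised ones 116.7, 80.9, 75.1, 63.6 and 96.3 CPM. These 3 sets overlapped. Their means were 90.5 ± 20.0 CPM in JM140 to JM144, 96.6 ± 15.4 CPM in exercised and 86.5 ± 20.6 CPM in unexercised 9-week livers, against 10.3 ± 0.869 CPM in JM132 to JM136 (SD, n = 5 each).

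Nfu_g_1_017722, with the second smallest ratio of 0.193, was the most abundant member and carried 15.2% of the members' summed CPM in the other 15 libraries. It had 51.9, 105, 94.2, 66.8 and 62.1 CPM in JM132 to JM136, and 924, 798, 694, 1081 and 1157 CPM in JM140 to JM144. At 9 weeks it had 1223, 1124, 940.4, 1603 and 1097 CPM with exercise and 825, 545, 877, 1539 and 872 CPM without. The 3 other sets overlapped widely. The mean of the 15 libraries, 1020.0 CPM, was 13.3-fold that of JM132 to JM136, 76.0 ± 22.5 CPM (SD, n = 5), with 0.5 CPM added to both. With an implied length of 945 bases its level was 1079 CPM per kilobase in the 15 libraries, the highest of the members on that scale.

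The widest ratio of means, 53.2-fold with 0.5 CPM added to both, came from a member that also varied most among the 15 other libraries. Its CPM ran from 28.1 to 833 there, with a coefficient of variation (CV, SD over mean) of 82.9%. In JM132 to JM136 it ran from 0.302 to 9.31 CPM, from 13 to 472 counts a library. Its log2 level relative to the other 15 libraries was -7.92 in JM135 and -7.07 in JM136, and -4.83 to -4.30 in JM132 to JM134. By the selection ratio it ranked 16 of 58. Over all members the CV in the 15 libraries had a median of 23.1%, against 20.6% over the 10539 genes. Within JM132 to JM136 the medians were 25.9% and 21.2%. The rule uses an extreme value of each of these sets, and the members were more abundant than the 10539 genes. These medians are descriptions.

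**Figure D4:**
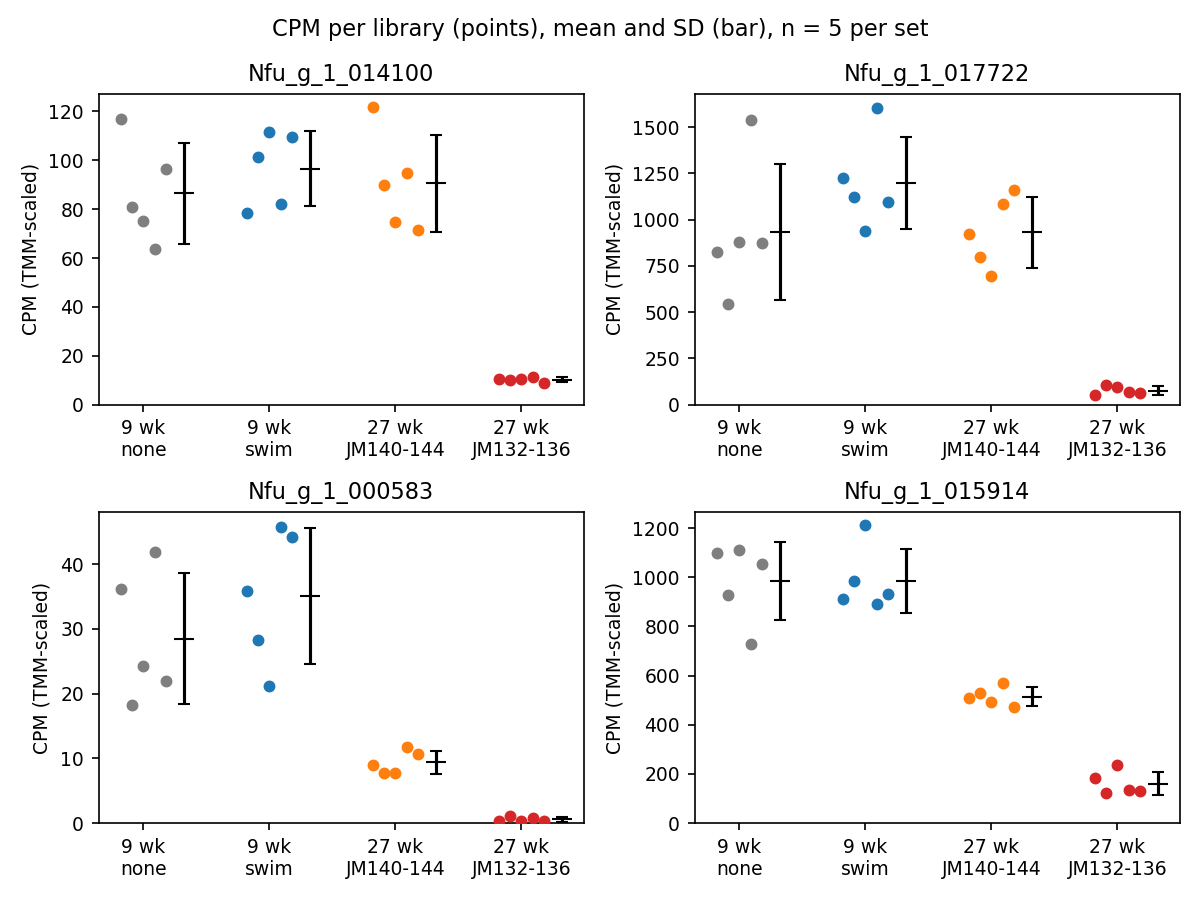
CPM of 4 members in each library (points, in order of title number) with mean and SD (bars, n = 5 per set); each y axis is linear and starts at 0. The upper genes overlap among the 3 other sets, and the lower genes are intermediate in JM140 to JM144, between the 9-week livers and JM132 to JM136. JM132 to JM136 are lowest by selection, and the lower genes were named for falls without overlap with exercised 9-week livers.

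The members were more abundant than the genes they were drawn from. Their mean CPM was between 10 and 100 in 37 and between 100 and 1000 in 14, which is 24.1% against 4.93% of the 10539 genes. Only 7 members, 12.1%, had a mean of 1 to 10 CPM, a class that held 47.6% of the 10539 genes. The 0.5 CPM that the rule adds to both values raises the ratio most at low CPM, so abundance bears on the selection. With 0 CPM added 74 genes met the rule, and with 1 CPM added 53 did. The ratio of means, with 0.5 CPM added to both, had a median of 5.05-fold in the lowest class, 4.82-fold in the middle and 7.27-fold in the highest. The added value lowers this ratio most in the lowest class, so the order of the classes is not a result. The 5 most abundant members made up 48.8% of the summed CPM of the 58 in the other 15 libraries.

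Gene lengths implied by the deposited tables were available for all 58 members and for 10028 of the 10539 genes (95.2%). The members had a median length of 3423 bases, with quartiles of 1799 and 5708, and the longest reached 12436 bases. The 10028 genes had a median of 2829 bases, with quartiles of 1404 and 4846. There were 12 members below the lower and 19 above the upper of these quartiles. Per kilobase, the level of the members in the other 15 libraries had a median of 12.4 CPM and ran from 1.56 to 1079. In JM132 to JM136 the same scale gave a median of 2.29, from 0.167 to 132.25. One pair of members bore adjacent identifier numbers, and 2 more pairs were 2 or 3 numbers apart. How reads with several mapping places were counted is not given in these sources, and the values of members with a near-identical copy are uncertain.

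The rule did not use the difference between JM140 to JM144 and the 9-week livers, but it did use the lowest value of these 15 libraries and the 9-week means, so the tests of that difference are not independent of the selection. Libraries JM140 to JM144 were compared with the 9-week livers in a fit of the 15 other libraries, with edgeR's quasi-likelihood test and Benjamini-Hochberg adjustment over 16705 genes. All 58 members passed the filter on low counts. Against exercised 9-week livers, 6 members fell and 1 rose, 10.3% and 1.72%, where 10.2% of all genes tested fell and 10.6% rose. The median log2 fold change of the members was -0.14 (lowest -1.90, highest 0.79), beside -0.02 over all genes. Within 1.5-fold lay 48 members, 82.8%, against 74.9% of all genes tested. The share of falls was close to the background, and the share of rises was below it. The genes tested were not limited to the CPM range and 9-week window of the members.

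Against unexercised 9-week livers, 7 members fell and 2 rose, 12.1% and 3.45%, where 9.68% of all genes tested fell and 9.35% rose. Age and exercise both differ in this comparison and cannot be told apart. The median log2 fold change was -0.01 (lowest -1.59, highest 0.78), beside -0.02 over all genes. With unscaled library totals, 19 fell and 0 rose in edgeR, with 0 rises at an unadjusted p under 0.05, and the median of all genes tested shifted from -0.02 to -0.32. The rule held the 9-week means of the members within 1.3-fold, which was not asked of all genes tested. Both comparisons share JM140 to JM144. In both, 4 members were called in the same direction, 6.90%, where 9.34% of all genes tested were. In neither were 46 members called, 79.3%, against 69.6% of all genes tested. The counts moved with single libraries: 4 members fell without JM141 or without JM144, and 1 rose without JM125, JM126, JM127, JM143 or JM144. The members that rose were Nfu_g_1_006033, from 6.46 ± 0.93 to 9.51 ± 1.85 CPM, and Nfu_g_1_018392, from 13.2 ± 2.70 to 18.8 ± 3.86 CPM (SD, n = 5 each, edgeR adjusted p = 0.019 and 0.033). For each, the values in JM140 to JM144 overlapped with those of unexercised 9-week livers. Neither was called against exercised 9-week livers (edgeR adjusted p = 0.079 and 0.30). Both were named after their values were seen.

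**Figure D5:**
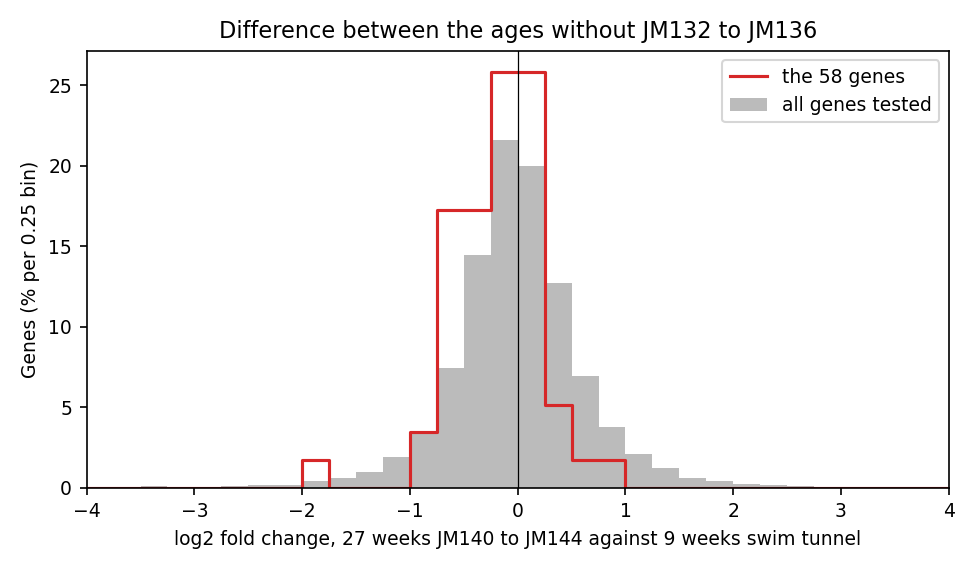
Log2 fold change of JM140 to JM144 against exercised 9-week livers (x axis), as percent of genes per 0.25 bin (y axis), for the 58 members (red line) and all 16705 genes tested (grey bars). The members' median is -0.14, and 1 member lies apart at -1.90.

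The largest fall in JM140 to JM144 was that of Nfu_g_1_000583, with an implied length of 3468 bases. It had 35.8, 28.2, 21.2, 45.8 and 44.3 CPM in exercised 9-week livers and 8.96, 7.77, 7.78, 11.7 and 10.7 CPM in JM140 to JM144. Libraries JM132 to JM136 had 0.312, 1.18, 0.291, 0.836 and 0.279 CPM, from 10 to 60 counts a library. Unexercised 9-week livers had 36.2, 18.2, 24.3, 41.9 and 21.9 CPM. Every library of JM140 to JM144 thus lay below every 9-week library. The gene was named for the lack of overlap with exercised livers. By the selection rule, every library of JM140 to JM144 also lay above every library of JM132 to JM136. The log2 fold change of JM140 to JM144 was -1.90 ± 0.26 against exercised (SE, edgeR adjusted p = 0.00035) and -1.59 ± 0.25 against unexercised 9-week livers (SE, edgeR adjusted p = 0.0015).

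Nfu_g_1_015914, an abundant gene of 1215 bases, had the next largest fall and is also the last member by the selection ratio. It had 912, 986, 1210.3, 891 and 932 CPM in exercised and 1100, 927, 1111, 729 and 1053 CPM in unexercised 9-week livers. Libraries JM140 to JM144 had 511, 531, 491, 570.5 and 470.4 CPM. Libraries JM132 to JM136 had 182, 120.6, 235, 137 and 129.7 CPM. The 9-week sets overlapped, and the 27-week runs stood below them in separate ranges. The separation of the 2 runs follows from the selection rule, and that of JM140 to JM144 from exercised livers from how the gene was named. The log2 fold change of JM140 to JM144 was -0.94 ± 0.12 against exercised and -0.92 ± 0.12 against unexercised 9-week livers (SE, edgeR adjusted p = 0.00033 and 0.00062). In all, 3 of the 58 members had every library of JM140 to JM144 below every 9-week library, 5.17%, where 2.44% of the genes tested did. None had every library above, where 2.34% of the genes tested did.

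The 1 member that rose against exercised 9-week livers, Nfu_g_1_009636, was named after its values were seen. It had 36.6, 25.7, 20.1, 16.0 and 23.4 CPM in exercised 9-week livers and 59.9, 50.6, 29.9, 35.3 and 35.0 CPM in JM140 to JM144. These ranges overlapped, and JM132 to JM136 had 1.86 to 6.84 CPM. It rose by 0.79 ± 0.24 on the log2 scale (SE, edgeR adjusted p = 0.030). The call was lost without JM118, JM119, JM120, JM121, JM140 or JM141 (edgeR adjusted p from 0.051 to 0.071). The number of members that rose was 0 without JM118, JM119, JM120 or JM140, with 1 to 3 rises at an unadjusted p under 0.05 in those edgeR fits, and 3 without JM121. The 2 genes with the smallest selection ratios did not pass the test in either comparison. Against exercised 9-week livers, Nfu_g_1_014100 had a log2 fold change of -0.10 ± 0.17 and Nfu_g_1_017722 of -0.36 ± 0.24 (SE, edgeR adjusted p = 0.74 and 0.30).

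At 9 weeks the rule held the exercised and unexercised means within 1.3-fold, so exercise is part of the selection. Within that window the exercised mean was higher in 39 members and lower in 19. The ratios, with 0.5 CPM added to both means, ran from 0.80 to 1.29 with a median of 1.09. The exercised mean was higher in 67.2% of the members and in 49.3% of the 10539 genes, whose median ratio was 0.997. Relative to the 15 libraries, the members' median level was 81.5% in JM125 and 93.6% to 112.3% in the other unexercised livers. These shares were not computed without JM125. Of the 3 sets outside the low run, exercised 9-week livers had the highest mean in 28 members, JM140 to JM144 in 17 and unexercised 9-week livers in 13. These are 48.3%, 29.3% and 22.4%, against 32.7%, 37.0% and 30.3% of the 10539 genes. The lowest mean was in JM140 to JM144 for 30 members, in unexercised livers for 19 and in exercised livers for 9. These are 51.7%, 32.8% and 15.5%, against 43.7%, 26.1% and 30.1% of the 10539 genes. The rule used the lowest value over these 3 sets and the 9-week means, and JM125 enters the unexercised means. The shares of highest and lowest means are therefore descriptions.

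Among the 15 other libraries, the lowest value of a member fell most often in JM125, an unexercised 9-week liver. It was lowest in 15 members, 25.9%, against 5.77% of the 10539 genes. Since the rule uses that lowest value, the library that holds it is given as a description. JM142 was lowest in 9 members, 15.5% against 10.3% of the 10539 genes, and JM127 in 7, 12.1% against 7.18%. JM121, JM124 and JM128 were lowest in 0 members, against 3.78%, 4.60% and 5.31% of the 10539 genes. The median level of the members in JM125 was 81.5% of the mean of the 15, the lowest of them. JM125 also had the fewest counts of all libraries, 22.4 M, and the largest TMM factor of the 15, 1.21. The part of these measures in its low level was not tested.

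The rule did not use the correlation between members outside the low run. It did use the lowest value of these 15 libraries and the means of the younger livers. The correlations are therefore not independent of the selection. After removal of the set means, the mean correlation of log2 CPM between pairs of members over the 15 libraries was 0.16, against 0.003 over all pairs of the 10539 genes. Members of 10 CPM or more gave 0.16, against 0.009 for the 5525 genes of that level. Without JM125 the value of the members was 0.099, and that of the 10539 genes was not computed. The pairs share the same 15 libraries, their depth and their scaling, so these values are descriptions.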

How the data were processed

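Liver RNA libraries (TruSeq RNA v2, per the labels' protocols) gave raw counts that the authors deposited for 26739 identifiers; per the submitters' processing notes the tools included STAR 2.4.1d, featureCounts 1.4.6-p4 and bcl2fastq 1.8.4. The build, strand setting and handling of multi-mapping reads are not given in these sources. A table the authors deposited as RPKM is treated as a score, since its library totals are cycled down the table; gene lengths were derived from it (CV across libraries at most 0.0047% over 3127 genes), and nothing else.

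The counts were scaled with TMM over all genes (edgeR 4.0.16, R 4.3.3). Libraries JM140 to JM144 were tested against each 9-week group in a fit of 15 libraries, without JM132 to JM136: filterByExpr, robust quasi-likelihood F-test, two-sided, Benjamini-Hochberg adjustment over 16705 genes, threshold 0.05. Standard errors were derived from the F statistic. The steps were tested on simulated data. Alternatives were DESeq2 1.42.0 size factors and Wald test, limma 3.58.1 voom, other scalings and filters, and libraries left out.

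Named were the 2 members with the smallest ratio and a mean of at least 10 CPM in the other 15 libraries, and the 2 with the largest called rise and fall against exercised 9-week livers whose libraries did not overlap; 0 rises qualified. The members, the comparisons and this rule were chosen with earlier results of these data known. The cell type markers could not be used without gene names. At depths of 22.4 to 44.6 M counts, every member had at least 10 counts in each library.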

Additional observations from a re-analysis of the deposited data

How the results depend on the processing

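The number of genes meeting the rule, 58, was 25 with library totals, 102 with no window at 9 weeks, 93 without JM135 and JM136, 1044 where any gap sufficed and 14 with a ratio under 0.33. In the other 6 settings it stayed within 1.5-fold (45 to 74), and with single libraries left out it was 49 to 73. Against exercised 9-week livers, rises in JM140 to JM144 numbered 0 in limma-voom and 0 with all 20 libraries in the edgeR fit (4 and 2 at an unadjusted p under 0.05), and falls 10 in limma-voom; leaving out single libraries gave 0 to 3 rises and 4 to 6 falls. Against unexercised 9-week livers, library totals gave 0 rises and 19 falls and the DESeq2 Wald test 4 rises; leaving out single libraries gave 1 to 3 rises and 4 to 7 falls. The cause of these shifts was not tested. The falls of Nfu_g_1_000583 and Nfu_g_1_015914 held in all 19 alternatives of each comparison (adjusted p of at most 0.0052), those without 1 library included. Both genes were named for called falls without overlap with exercised livers in these same libraries. That their falls held is therefore a description. No paired analysis was possible because the labels give the groups no shared replicate numbers. Of 28 sets of 5 values examined, 0 held a library apart from the rest.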
